A study of Mus musculus with 56 samples.

Results

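Semi-allogeneic pregnancy brings maternal T cells into contact with the father's antigens, and in mothers that already carry memory to those antigens the responding CD8+ T cells fall into subsets that can be told apart by surface protein. The comparison described here sets PD1+CD73+ cells (S+P C5) against PD1- cells (S+P C4) of sensitized mothers. All cells were endogenous OVA:Kb-specific CD8+ T cells (TFGS) from the spleen and lymph nodes of female C57BL/6 mice. Both groups share the whole history of the mice: a skin graft from an allogeneic 2W-OVA.BALB/c donor that was rejected, later mating with 2W-OVA.BALB/c males, and a semi-allogeneic pregnancy, with sorting after delivery. Graft donors and sires were transgenic for 2W-OVA, a recombinant model antigen that they express constitutively, so the sorted cells stand for 1 specificity among the paternal antigens. Members were taken by their labels and columns: 6 replicates of S+P C5 and 6 of S+P C4, or 12 of the 30 samples of the series, in 19 of its 56 sequencing libraries. In the 30, replicates of a further subset, S+P C7 (PD1+CD73-), with near-identical libraries were averaged and counted as 1 sample. The study describes separate experiments and fewer biological samples per group than the labels have replicate numbers, so whether each number is a mouse of its own cannot be told, and all p-values measure the spread between these samples. A second comparison used PD1+CD73+ (N+P C5, n = 3) and PD1- (N+P C1, n = 3) cells from mice that had the same kind of pregnancy without an earlier graft.

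PD1, encoded by *Pdcd1*, is an inhibitory receptor that appears on T cells after antigen contact and stays on cells that keep meeting antigen. CD73, encoded by *Nt5e*, is an enzyme on the cell surface that makes adenosine from AMP, and together with FR4 (*Izumo1r*) it marks anergic T cells. Cells under lasting antigen contact are known for co-expression of several inhibitory receptors and for the transcription factor TOX, whereas conventional memory cells keep cytotoxic and migration genes ready for use.

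Each sample was 200 sorted cells, and its libraries were summed. A library held between 13378339 and 32625243 counts, with a median of 17641418, and 1 library of S+P C4 replicate 1 whose counts were identical to those of a Naive library was left out. The samples were not alike in how many genes they detected. S+P C4 replicates 2 and 3 had 8002 and 7436 genes with at least 1 count, against 12383 to 17398 in the other 4 replicates of S+P C4. S+P C5 replicates 2 and 3 had 12416 and 12652, against 15901 to 17338 in the other 4. Mitochondrially encoded genes took 24.3% of the counts in S+P C4 replicate 3 and 7.78% in replicate 2, and 2.04% to 4.26% in the other S+P C4 replicates. These 4 samples and S+P C4 replicate 1 rested on 1 library each, and the other 7 on 2. Counts over all genes and most gene lists are therefore given for 6 pairs and without replicates 2 and 3 of both subsets. The same holds for the fold changes of most leading genes. Counts of genes with the same direction in 6 of 6 pairs, or without overlap between the groups, are for 6 pairs only. All levels are TMM-scaled counts relative to library size (CPM).

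**Figure D1:**
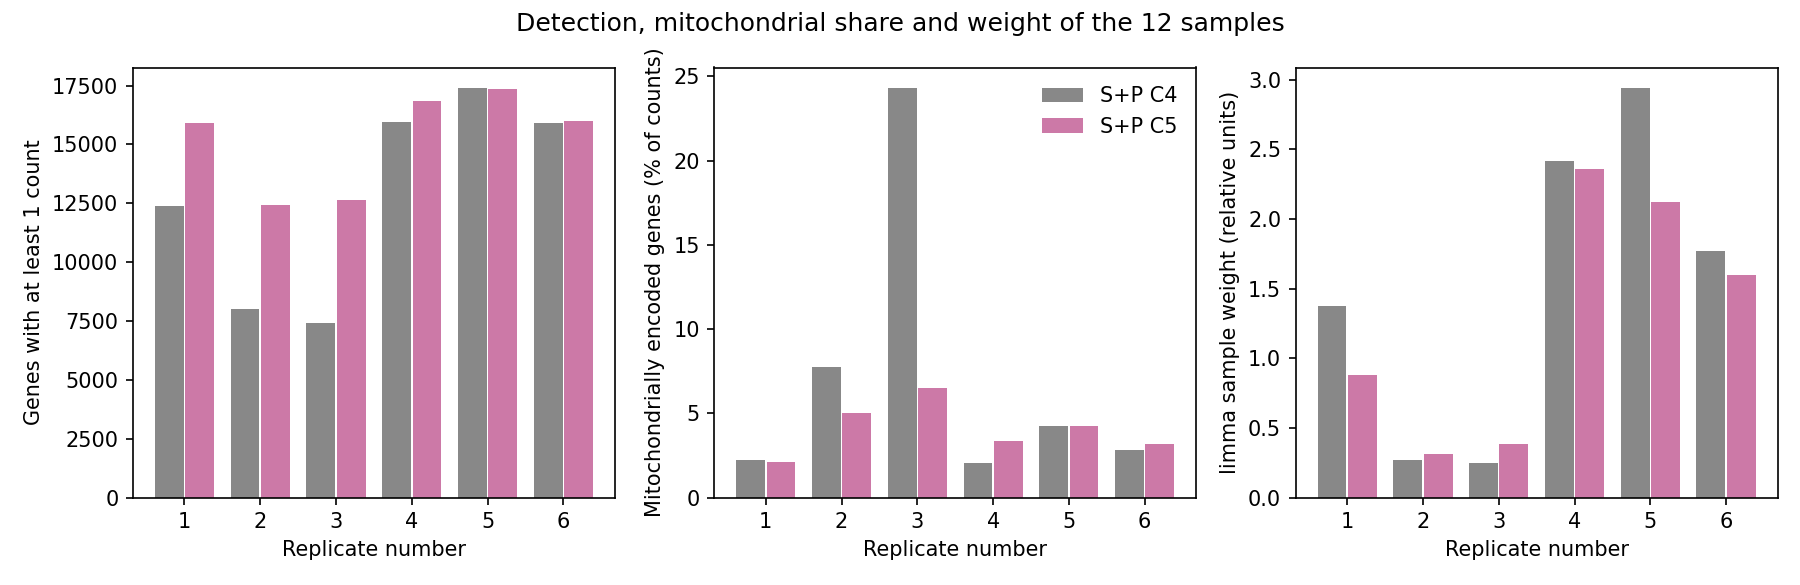
Genes with at least 1 count, the share of counts from mitochondrially encoded genes (in %) and the sample weight that limma estimated (relative units), for replicate numbers 1 to 6 of S+P C4 (grey bars) and S+P C5 (pink bars). Replicates 2 and 3 had the fewest genes in each subset, and their 4 weights lay between 0.251 and 0.384 where the other 8 lay between 0.878 and 2.94.

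The RNA of the genes whose proteins defined the gates followed the labels in every pair. *Pdcd1* was 0 to 128 CPM (median 54.3) in S+P C4 and 89.6 to 402 CPM (median 320.1) in S+P C5. It was higher in S+P C5 in 6 of 6 pairs, by a mean of 2.90 ± 2.07 (SD, n = 6) on the log2(CPM + 1) scale (exact sign-flip permutation test, two-sided, p = 0.03125, the smallest that 6 pairs allow). The S+P C4 value of 0 is that of replicate 3, and without replicates 2 and 3 the groups did not overlap. *Nt5e* was 0 to 119 CPM (median 65.2) in S+P C4 and 22.1 to 168 CPM (median 120.3) in S+P C5. It was again higher in 6 of 6 pairs, by 1.57 ± 1.69 (SD, n = 6, same exact permutation test, p = 0.03125). The edgeR adjusted p was 0.999 for both genes, and the limma-voom adjusted p was 0.00102 for *Pdcd1* and 0.313 for *Nt5e*. Since the cells were sorted on these 2 proteins, the differences check the labels and are no result about the cells. Without replicates 2 and 3 the mean difference was 2.24 for *Pdcd1* and 0.60 for *Nt5e*, each with p = 0.125, the smallest that 4 pairs allow in this exact test. For *Nt5e* the levels of the 2 groups overlapped in both settings. Both RNAs were above 0 in 5 of 6 S+P C4 samples.

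Across all genes, no gene was past an adjusted p of 0.1 and an absolute log2 fold change of 0.9 with edgeR over the 6 pairs (0 of 11822 genes tested, 0%). At an unadjusted p under 0.05 there were 409 genes (3.46%), 317 of them higher in S+P C5 (2.68%) and 92 lower (0.778%). Without replicates 2 and 3, edgeR called 2 of 13118 genes (0.0152%), *Icos* and *Ifi27l2a*, both higher, and at an unadjusted p under 0.05 it gave 1166 (8.89%), with 4.86% of all genes higher and 4.03% lower. With limma-voom and sample quality weights, an alternative that counts the 4 low samples for less, 377 genes were past both thresholds (3.19%), 177 higher in S+P C5 (1.5%) and 200 lower (1.69%). The same method without replicates 2 and 3 called 211 genes (1.61%), 113 higher (0.861%) and 98 lower (0.747%). edgeR without the replicate number as a block called 2, *Slamf6* (higher) and *Satb1* (lower). DESeq2 called 840 genes, 727 of them higher. In simulated counts made without any change between the subsets DESeq2 also called many genes, whereas edgeR and limma-voom called none, so the DESeq2 count is not read as a number of differing genes. The simulated counts held no mouse effect and no loss of detected genes in replicates 2 and 3. How limma-voom acts on such samples was therefore not tested by them. With 200 genes changed in such counts, edgeR called 28 of the 200 over 6 pairs and limma-voom 32. A count of 0 with edgeR therefore does not show that the subsets are alike. Any gene that passes the filter on low counts through S+P C5 alone has to differ, in every list below. With edgeR over the 6 pairs no gene named below passed. Genes are described by their levels or fold changes, and some of the leading genes by both adjusted p-values. The median log2 fold change of all genes tested was 0.64 with 6 pairs, 0.10 without replicates 2 and 3, and -0.07 with limma-voom, so that a median above 0 over 6 pairs is read against 0.64. Within pairs, the median difference of all genes was 0.90 and 1.14 in replicates 2 and 3 and -0.02 to 0.13 in the other 4.

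**Figure D2:**
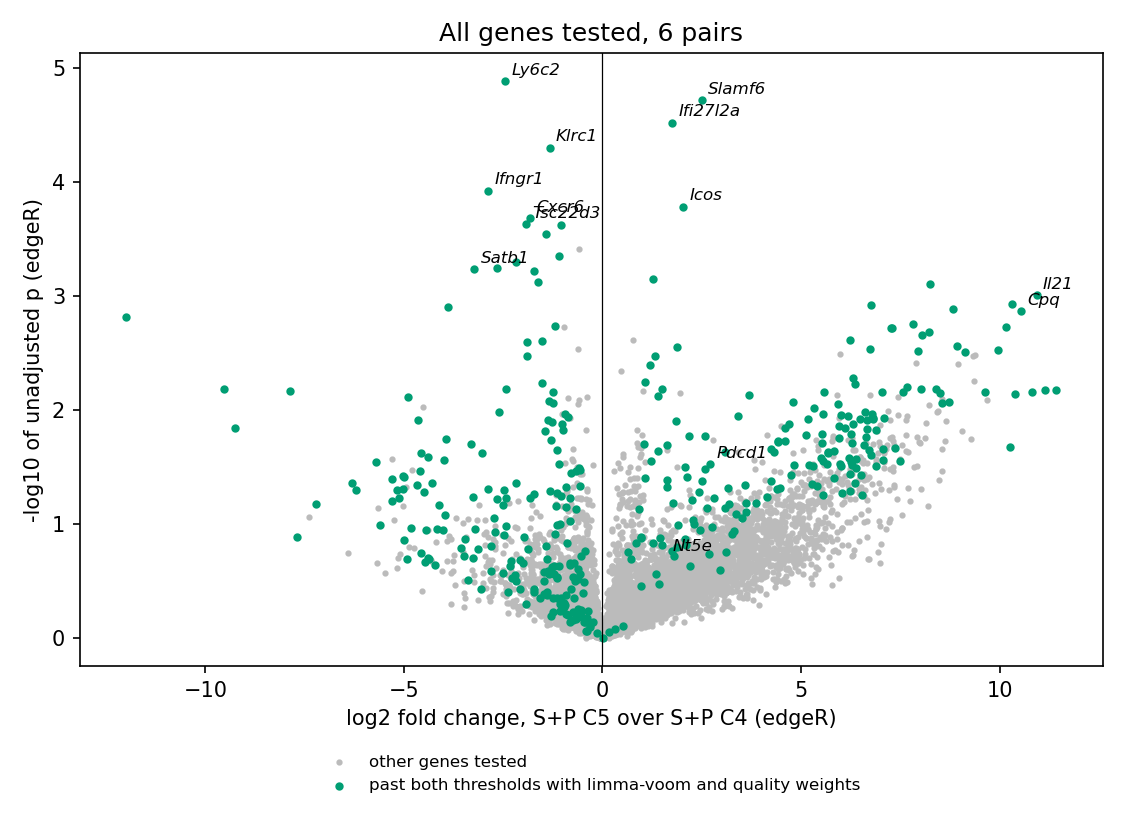
Log2 fold change of S+P C5 over S+P C4 (horizontal axis) against -log10 of the unadjusted edgeR p (vertical axis) for the 11822 genes tested over 6 pairs. Green points are the 377 genes past both thresholds with limma-voom and quality weights, grey points are the other genes tested, and *Ly6c2* and *Slamf6* lie highest on the 2 sides.

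Among genes that were higher in PD1+CD73+ cells, the 3 with the smallest p were *Slamf6*, *Ifi27l2a* and *Icos*. *Slamf6* (chr1:171745057-171780737, GRCm39), a receptor of the SLAM family that is kept by memory-like and stem-like T cells, was 66.6 to 425 CPM (median 264) in S+P C4 and 839 to 1469 CPM (median 1302) in S+P C5, with no overlap between the groups. On the log2 scale the difference was 2.50 ± 0.32 (SE), with an edgeR adjusted p of 0.113 and a limma-voom adjusted p of 0.000112. Without replicates 2 and 3 it was 2.69 ± 0.43 (edgeR adjusted p of 0.192). *Ifi27l2a*, an interferon-induced gene, was 88.2 to 548 CPM (median 225) in S+P C4 and 627 to 1519 CPM (median 677) in S+P C5, also without overlap. Its log2 fold change was 1.75 ± 0.23, with adjusted p-values of 0.119 (edgeR) and 5.03e-05 (limma-voom). Without replicates 2 and 3 it was 1.55 ± 0.13 (edgeR adjusted p of 0.0844). On GRCm39 it lies at chr12:103399975-103409950, where the annotation also places *Ifi27* on the opposite strand, and the strand setting of the counting is not given in the sources used here. *Icos* (chr1:61017086-61039479), a costimulatory receptor of activated and follicular helper T cells, was 25.3 to 430.3 CPM (median 89.7) in S+P C4 and 139 to 613 CPM (median 444) in S+P C5. The *Icos* groups overlapped through S+P C4 replicate 2, which had the highest level of that group, and without replicates 2 and 3 they did not. The log2 fold change of *Icos* was 2.03 ± 0.34 over 6 pairs, with adjusted p-values of 0.31 (edgeR) and 0.000146 (limma-voom), and 2.27 ± 0.14 without replicates 2 and 3, where its edgeR adjusted p was 0.0279.

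The other 7 genes named in this direction were all higher in 6 of 6 pairs. The rule that named them asked for the same sign in at least 5 of 6 pairs, so this agreement is no separate result. *Sh2d1a*, the SAP adaptor that carries SLAM family signals, was 83.5 to 325 CPM (median 157) in S+P C4 and 241 to 625 CPM (median 359) in S+P C5. For *Sh2d1a* the log2 fold change was 1.27 ± 0.26, with an edgeR adjusted p of 0.49 and a limma-voom adjusted p of 0.0015. Without replicates 2 and 3 it was 1.38 ± 0.21. *Il21*, a cytokine of follicular helper cells, was at 0 in 5 of 6 S+P C4 samples and at 3.12 CPM in the other, while S+P C5 held 1.16 to 51.1 CPM (median 28.0). *Atp2b2*, a calcium pump, *Cpq*, a carboxypeptidase, and *Homez*, a homeobox gene, were at 0 in 5, 4 and 4 of 6 S+P C4 samples and reached 54.0, 49.2 and 29.5 CPM in S+P C5. *Lratd2* and *Nfkbil1* were at 0 in 4 and 3 of 6 S+P C4 samples and at most 10.6 and 5.83 CPM in S+P C5. For these 6 genes the fitted fold change rests on counts near 0 in S+P C4, and their edgeR adjusted p-values lay between 0.49 and 0.642.

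The 10 genes named as lower in PD1+CD73+ cells were detected in all 12 samples. *Ly6c2* (chr15:74980003-74988467), a surface antigen of memory and effector CD8+ T cells, had the smallest p of all genes. Its level was 746 to 3023 CPM (median 1628) in S+P C4 and 107 to 1089 CPM (median 333) in S+P C5. The log2 fold change was -2.45 ± 0.30, with adjusted p-values of 0.113 (edgeR) and 0.00416 (limma-voom), and it was -2.52 ± 0.42 without replicates 2 and 3. *Klrc1*, which encodes the inhibitory NK receptor chain NKG2A, was 454 to 1289 CPM (median 845) in S+P C4 and 259 to 435 CPM (median 347) in S+P C5, with no overlap. The log2 fold change of *Klrc1* was -1.33 ± 0.19 (adjusted p of 0.148 with edgeR and 0.000317 with limma-voom, the order used from here on) and -1.24 ± 0.19 without replicates 2 and 3. *Ifngr1* (chr10:19467697-19485977), the ligand-binding chain of the interferon-gamma receptor, was 278 to 933 CPM (median 460.2) in S+P C4 and 32.7 to 176 CPM (median 53.3) in S+P C5, again with every S+P C5 sample below every S+P C4 sample. On the log2 scale the difference was -2.88 ± 0.46 (adjusted p of 0.282 and 0.000317) and -2.94 ± 0.33 without replicates 2 and 3. A difference of this kind in sorted bulk samples does not tell apart fewer cells with the RNA and less RNA per cell.

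The rest of this direction were *Cxcr6*, *Tsc22d3*, *Klrk1*, *Klf2*, *H2-D1*, *Selplg* and *Il18rap*, each lower in 6 of 6 pairs. *Cxcr6*, a chemokine receptor of tissue-homing T cells, was 149 to 675 CPM (median 319) in S+P C4 and 20.1 to 243 CPM (median 95.7) in S+P C5 (log2 fold change -1.82 ± 0.31). *Tsc22d3*, the glucocorticoid-induced leucine zipper, was 392 to 1460.1 CPM (median 635) and 75.9 to 339 CPM (median 181) (log2 fold change -1.92 ± 0.33), and its groups did not overlap. *Klrk1*, the activating receptor NKG2D, was 623 to 1330.0 CPM (median 1074) and 344 to 583 CPM (median 521), also without overlap. *Il18rap*, a chain of the IL-18 receptor, had a log2 fold change of -2.17 ± 0.42, and *Selplg*, the selectin ligand PSGL-1, one of -1.09 ± 0.21. *H2-D1*, a classical MHC class I gene, differed least (-0.59 ± 0.11). Without replicates 2 and 3 the log2 fold changes were -1.69 (*Cxcr6*), -1.63 (*Tsc22d3*), -0.97 (*Klrk1*), -1.63 (*Klf2*), -2.38 (*Il18rap*), -1.33 (*Selplg*) and -0.48 (*H2-D1*). With limma-voom 9 of the 10 genes of this direction were past both thresholds, and *H2-D1*, with a limma-voom adjusted p of 0.009, had a log2 fold change under 0.9. *Klrc1*, *Klrk1*, *Ly6c2* and *H2-D1* belong to families with close paralogs, where discarding reads with several placements can lower their counts. Across all genes tested, 5.62% were higher and 1.39% lower in 6 of 6 pairs, and the 2 groups did not overlap in 0.897% (S+P C5 higher) and 0.178% (S+P C5 lower).

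**Figure D3:**
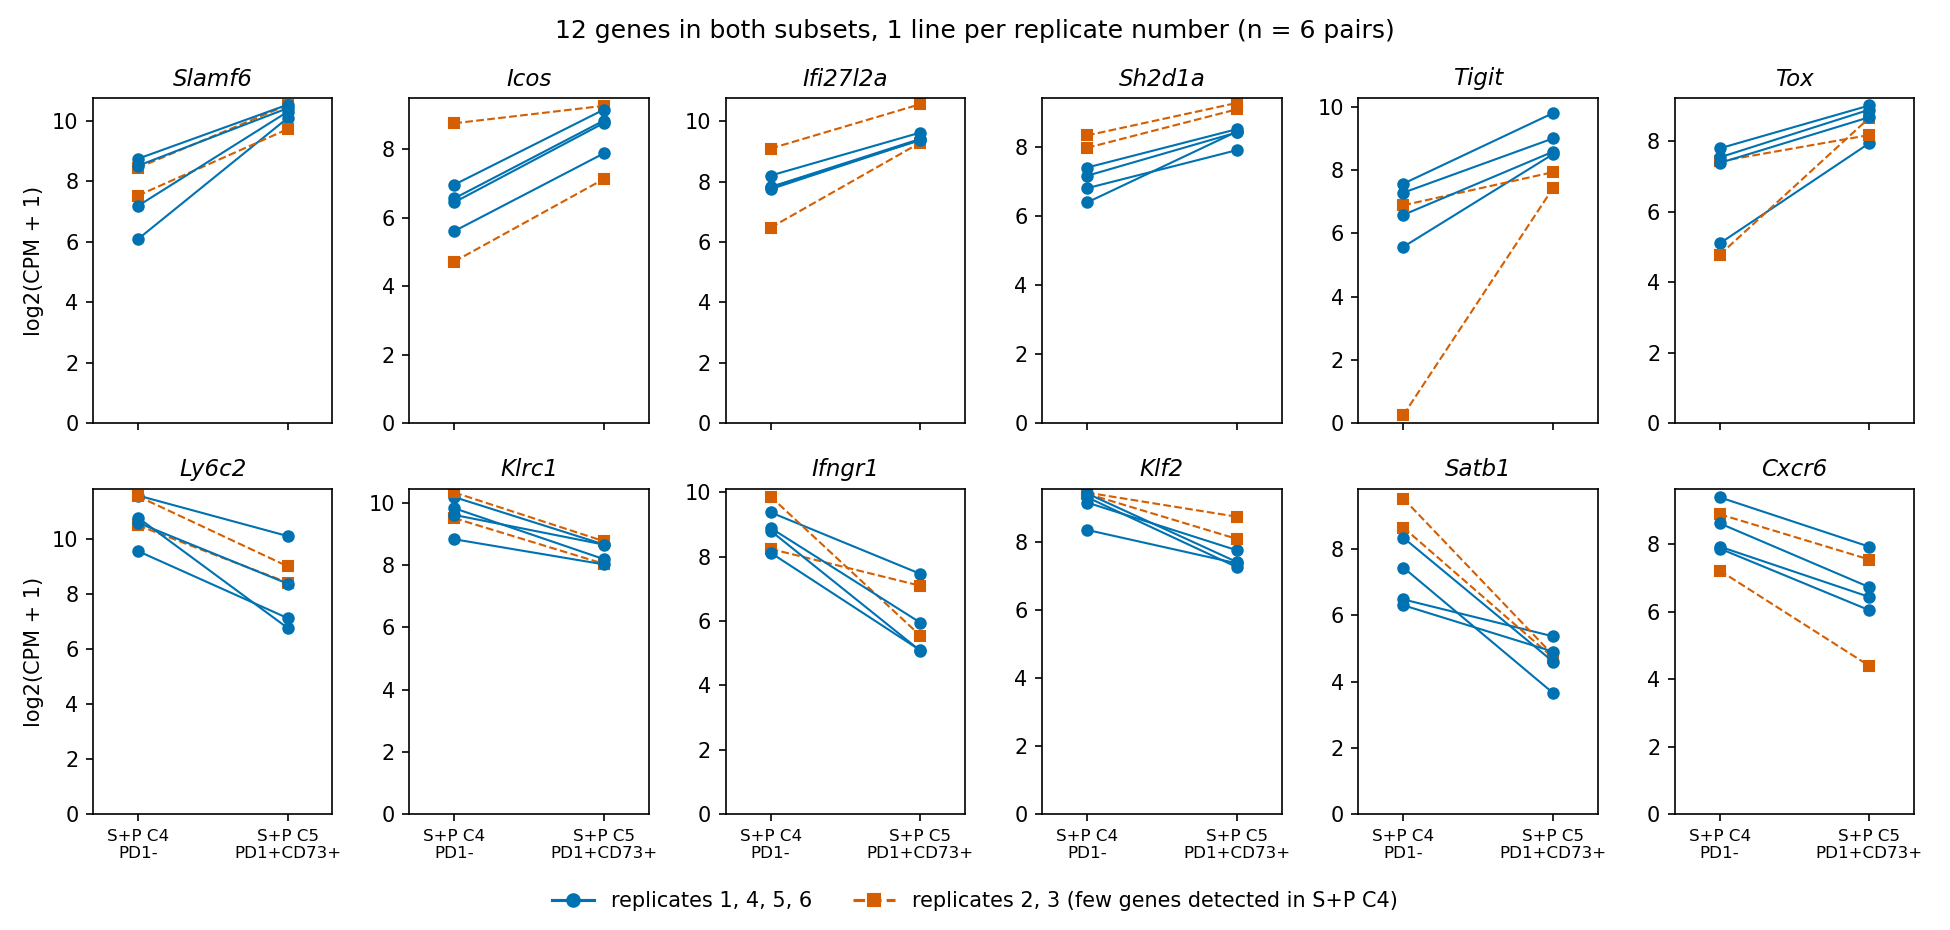
Levels of 12 genes on the log2(CPM + 1) scale in S+P C4 and S+P C5, with 1 line per replicate number (blue circles for replicates 1, 4, 5 and 6, orange squares for 2 and 3). The 6 lines rise in each panel of the upper row and fall in each panel of the lower row, and in the panel of *Tigit* replicate 3 has the steepest line. The genes were picked from these same 6 pairs, so their shared direction is no separate result.

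Of 15 inhibitory receptor genes, 6 were higher in PD1+CD73+ cells in 6 of 6 pairs and 0 were lower in 6 of 6. Among all genes tested these shares were 5.62% and 1.39%. *Pdcd1*, whose protein defined the gate, is in the list, and each count of higher members here includes it. All 15 genes of the list were tested, and 5 had an unadjusted edgeR p under 0.05, all of them higher, beside 2.68% of all genes. With limma-voom 7 were past both thresholds as higher and 1, *Lair1*, as lower, beside 1.5% and 1.69% of all genes. *Cd200r1*, near 0 in several S+P C4 samples, can pass the filter on low counts through S+P C5 alone. In the 4 pairs left without replicates 2 and 3, 7 were higher and 3 lower at an unadjusted p under 0.05, beside 4.86% and 4.03% of all genes. There 6 were higher and 0 lower past both thresholds with limma-voom, beside 0.861% and 0.747% of all genes, and *Lair1* was no longer called as lower. Their median log2 fold change was 1.84 over 6 pairs and 1.77 without replicates 2 and 3, beside 0.64 and 0.10 for all genes. *Tigit*, which competes with CD226 for shared ligands, was 0.195 to 189 CPM (median 106) in S+P C4 and 172 to 894 CPM (median 373) in S+P C5. It was higher in 6 of 6 pairs (log2 fold change 2.59 ± 0.89, adjusted p of 0.999 and 0.000112, and 2.22 ± 0.24 without replicates 2 and 3). *Cd200*, a ligand that restrains myeloid cells, was 0 to 94.5 CPM (median 29.2) and 169 to 485 CPM (median 292), without overlap. Its receptor *Cd200r1* was 0 to 7.34 CPM (median 0.36) and 11.2 to 45.9 CPM (median 29.3). The adjusted p of *Cd200* was 0.999 with edgeR and 0.00109 with limma-voom, and that of *Cd200r1* was 0.999 and 0.0745. *Ctla4*, which takes B7 molecules away from CD28, and *Lag3*, which binds MHC class II, were each higher in 5 of 6 pairs. The exceptions were replicate 3 for *Ctla4* and replicate 2 for *Lag3*. *Lag3* was 0 to 183 CPM (median 130.3) in S+P C4 and 43.3 to 693 CPM (median 399.9) in S+P C5. *Havcr2*, which encodes TIM-3, was higher in 4 pairs and lower in 2, with means of 27.6 ± 23.5 and 26.1 ± 21.2 CPM (SD, n = 6) in the PD1- and PD1+CD73+ samples. *Cd244a*, the SLAM family receptor 2B4, was lower in 5 pairs and at 0 in both samples of replicate 2 (log2 fold change -2.38 ± 1.42).

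Genes known from follicular helper T cells were higher in PD1+CD73+ cells for nearly every tested member. Of 18 listed genes 11 were tested, since *Il4*, *Cxcl13*, *Pou2af1*, *Ascl2*, *Angptl2*, *Cebpa* and *Matn2* did not pass the filter on low counts, and 9 of the 11 had an unadjusted p under 0.05, all higher, beside 2.68% of all genes. With limma-voom 9 were past both thresholds, all higher, beside 1.5% of all genes. The median log2 fold change was 3.41 over 6 pairs and 2.91 without replicates 2 and 3, beside 0.64 and 0.10 for all genes. In the second setting 8 of 14 tested genes had an unadjusted p under 0.05, all higher, beside 4.86% of all genes. There 7 were past both thresholds with limma-voom, all higher, beside 0.861% of all genes. *Slamf6*, *Icos*, *Sh2d1a* and *Il21*, described above, are members of the list. A gene that passes the filter through S+P C5 alone has to differ, and the 7 untested genes are not covered by these values. *Il21* and *Sostdc1*, near 0 in several S+P C4 samples, can pass in this way. *Cxcr5*, the receptor that guides cells into B cell follicles, was 0 to 93.8 CPM (median 10.3) in S+P C4 and 85.6 to 258 CPM (median 208) in S+P C5, at 0 in S+P C4 replicates 2 and 3. *Tbc1d4*, a regulator of glucose transporter traffic, was 0.0977 to 124 CPM (median 46.9) and 189.5 to 411 CPM (median 332), without overlap. Its log2 fold change was 3.41 ± 1.08 (adjusted p of 0.999 and 0.00109). *Sostdc1*, a secreted BMP and WNT antagonist made by follicular helper cells, was 0 to 13.55 CPM (median 0.72) and 9.43 to 216 CPM (median 69.1). *Bcl6*, the transcription factor of follicular helper cells, was higher in 5 of 6 pairs with means of 17.9 ± 19.1 and 60.2 ± 18.5 CPM (SD, n = 6, limma-voom adjusted p of 0.67), above the threshold.

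Among costimulatory and TNF family genes, 9 were higher in 6 of 6 pairs and 1 was lower in 6 of 6. Of all genes tested, 5.62% were higher and 1.39% lower in 6 of 6 pairs. Of 20 genes 19 were tested. At an unadjusted p under 0.05, 6 were higher and 1 lower, beside 2.68% and 0.778% of all genes. With limma-voom 7 were past both thresholds, all higher, beside 1.5% of all genes. *Cd40lg* and *Tnfrsf4*, at medians of 0.0111 and 0.959 CPM in S+P C4, can pass the filter on low counts through S+P C5 alone. Such genes have to differ, and the counts of higher members here can include them. In the 4 pairs left without replicates 2 and 3, 12 were higher and 1 lower at an unadjusted p under 0.05, beside 4.86% and 4.03% of all genes. There 6 were higher past both thresholds with limma-voom, beside 0.861% of all genes. The list's median was 1.49 on the log2 scale over 6 pairs and 1.07 in those 4, beside 0.64 and 0.10 for all genes. The ligand and receptor pair *Tnfsf4* (OX40 ligand) and *Tnfrsf4* (OX40) was low in S+P C4, at 0 to 14.8 CPM (median 5.29) and 0 to 17.8 CPM (median 0.959), and reached 31.2 to 189.7 CPM (median 93.3) and 3.39 to 139 CPM (median 61.2) in S+P C5 (*Tnfrsf4* adjusted p of 0.999 with edgeR and 0.00627 with limma-voom). *Tnfsf8* (CD30 ligand) was 0 to 95.6 CPM (median 10.03) in S+P C4 and 78.8 to 343 CPM (median 192) in S+P C5. *Cd40lg*, the ligand that helps B cells, was at most 4.97 CPM in S+P C4 and 5.24 to 22.03 CPM (median 13.51) in S+P C5. *Cd226*, the activating partner of TIGIT, had the opposite direction in 6 of 6 pairs (log2 fold change -1.01 ± 0.32, adjusted p of 0.999 with edgeR and 0.0473 with limma-voom). *Cd28* and *Cd27* differed by 0.63 ± 0.30 and 0.63 ± 0.28 on the log2 scale, beside 0.64 for all genes.

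Transcription factors of the antigen response were led by *Tox*. *Tox*, a factor required by exhausted T cells, was 26.5 to 222 CPM (median 169) in S+P C4 and 246 to 518 CPM (median 409) in S+P C5, with no overlap. For *Tox* the log2 fold change was 1.87 ± 0.46 (adjusted p of 0.797 with edgeR and 0.000877 with limma-voom) and 1.67 ± 0.32 without replicates 2 and 3. Its relative *Tox2* was 0 to 12.2 CPM (median 0.833) and 22.1 to 59.3 CPM (median 43.5) (adjusted p of 0.999 with edgeR and 0.0185 with limma-voom). All 22 genes of the list were tested, and 5 had an unadjusted p under 0.05, all higher, beside 2.68% of all genes. With limma-voom 6 were past both thresholds as higher and 1, *Tbx21*, as lower, beside 1.5% and 1.69% of all genes. *Tox2* and *Ikzf2*, near 0 in several S+P C4 samples, can pass the filter on low counts through S+P C5 alone. The median log2 fold change was 1.29 over 6 pairs and 1.07 without replicates 2 and 3, beside 0.64 and 0.10 for all genes. In the second setting 11 were higher and 3 lower at an unadjusted p under 0.05, beside 4.86% and 4.03% of all genes. There 4 were higher and 1 lower past both thresholds with limma-voom, beside 0.861% and 0.747% of all genes. *Ikzf2* (Helios) was 0 to 33.6 CPM (median 0.82) in S+P C4 and 16.9 to 124 CPM (median 69.8) in S+P C5, with a limma-voom adjusted p of 0.105, above the threshold. *Irf4*, induced by T cell receptor signals, was 0 to 36.3 CPM (median 5.41) and 50.7 to 94.9 CPM (median 78.9). The NFAT genes differed among themselves. *Nfatc1* was higher in 6 of 6 pairs, at 72.5 to 287 CPM (median 174) and 259 to 415 CPM (median 297), with a log2 fold change of 0.95 ± 0.36 over 6 pairs and 0.51 ± 0.17 without replicates 2 and 3, and it passed with neither tool (adjusted p of 0.999 with edgeR and 0.186 with limma-voom). *Nfatc2* and *Nfatc3* had log2 fold changes of 0.26 ± 1.16 and 0.06 ± 0.40. *Nr4a1*, an immediate-early gene of the T cell receptor, was higher in 3 of 6 pairs, whereas *Egr2* was higher in 6 of 6, at 0 to 20.9 CPM (median 2.07) and 4.91 to 61.0 CPM (median 20.02). *Tbx21*, the T-bet gene of effector cells, was 0.0977 to 379 CPM (median 169.9) in S+P C4 and 27.8 to 137 CPM (median 85.3) in S+P C5. On the log2 scale the difference was 0.02 ± 1.15 over 6 pairs and -1.28 ± 0.26 without replicates 2 and 3, and S+P C4 replicate 3 had the lowest level, 0.0977 CPM.

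Genes of anergy and of the adenosine path had members on both sides, but 7 were higher and 0 lower in 6 of 6 pairs. Of all genes tested, 5.62% were higher and 1.39% lower in 6 of 6 pairs. *Nt5e*, whose protein defined the gate, is in the list and among these 7. 18 of 19 genes were tested. At an unadjusted p under 0.05, 2 were higher (*Cblb* and *Izumo1r*) and 1 lower (*Socs2*), beside 2.68% and 0.778% of all genes. With limma-voom 3 were past both thresholds, 2 higher (*Izumo1r* and *Egr2*) and 1 lower (*Socs2*), beside 1.5% and 1.69% of all genes. *Egr2*, at a median of 2.07 CPM in S+P C4, can pass the filter on low counts through S+P C5 alone. Their median log2 fold change was 1.73 over 6 pairs and 0.76 without replicates 2 and 3, beside 0.64 and 0.10 for all genes. In the second setting 19 were tested, and 6 were higher and 2 lower at an unadjusted p under 0.05. The shares of all genes there were 4.86% and 4.03%. With limma-voom 1 was higher and 1 lower past both thresholds in that setting, beside 0.861% and 0.747% of all genes. *Izumo1r*, the FR4 gene, was 5.01 to 187 CPM (median 20.7) in S+P C4 and 34.9 to 191 CPM (median 116) in S+P C5. It was higher in 5 of 6 pairs (log2 fold change 2.51 ± 1.07, and 2.67 ± 0.32 without replicates 2 and 3, with a limma-voom adjusted p of 0.00935). *Entpd1*, which encodes CD39, the enzyme that makes the AMP used by CD73, was higher in 2 of 6 pairs, with means of 61.5 ± 55.2 and 38.4 ± 22.1 CPM (SD, n = 6). *Socs2* was 0 to 142 CPM (median 8.04) in S+P C4, with the highest level in replicate 2, and 0 to 12.5 CPM (median 0.0251) in S+P C5. *Rnf128* (GRAIL), *Dgka* and *Itch* passed none of these tests over 6 pairs, and *Cblb*, a ubiquitin ligase that dampens T cell receptor signals, had a limma-voom adjusted p of 0.534.

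The genes of quiescence, memory and lymph node homing split by member. 21 of 22 genes were tested. At an unadjusted p under 0.05, 2 were higher and 7 lower, beside 2.68% and 0.778% of all genes. With limma-voom 1 was higher and 8 were lower past both thresholds, beside 1.5% and 1.69% of all genes. The median log2 fold change was -0.57 both over 6 pairs and without replicates 2 and 3, beside 0.64 and 0.10 for all genes. In the second setting 2 were higher and 9 lower at an unadjusted p under 0.05, beside 4.86% and 4.03% of all genes. There 7 were lower past both thresholds with limma-voom, beside 0.747% of all genes. *Satb1*, a chromatin organizer of naive and memory T cells, was 78.3 to 739 CPM (median 249) in S+P C4 and 11.6 to 40.3 CPM (median 26.2) in S+P C5, with no overlap. Its log2 fold change was -3.23 ± 0.64 (adjusted p of 0.45 and 0.00162) and -2.57 ± 0.61 without replicates 2 and 3. *Klf2*, which drives genes of recirculation, was 327 to 700.1 CPM (median 661) and 153 to 428 CPM (median 193) (log2 fold change -1.42 ± 0.25). *Klf3* was 287 to 473 CPM (median 403) and 93.3 to 322 CPM (median 161). *S1pr1*, the receptor for exit from lymph nodes and a target of KLF2, was lower in 5 of 6 pairs, replicate 2 being the exception. *Lef1*, a WNT pathway factor, was 78.9 to 357 CPM (median 174) in S+P C4 and 17.1 to 101 CPM (median 48.3) in S+P C5. Its partner *Tcf7*, the TCF-1 gene of stem-like cells, was higher in 6 of 6 pairs, at 96.0 to 549 CPM (median 278) and 405 to 719 CPM (median 448) (log2 fold change 0.86 ± 0.29, limma-voom adjusted p of 0.0441). *Id3*, a marker of long-lived memory precursors, was also higher in 6 of 6 pairs, at 0.0506 to 57.6 CPM (median 7.70) and 85.8 to 169 CPM (median 125). *Il7r* and *Ccr7*, the receptors for IL-7 and for lymph node entry, were each higher in 2 pairs and lower in 4, with log2 fold changes of -0.57 ± 0.44 and -0.98 ± 0.79.

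**Figure D4:**
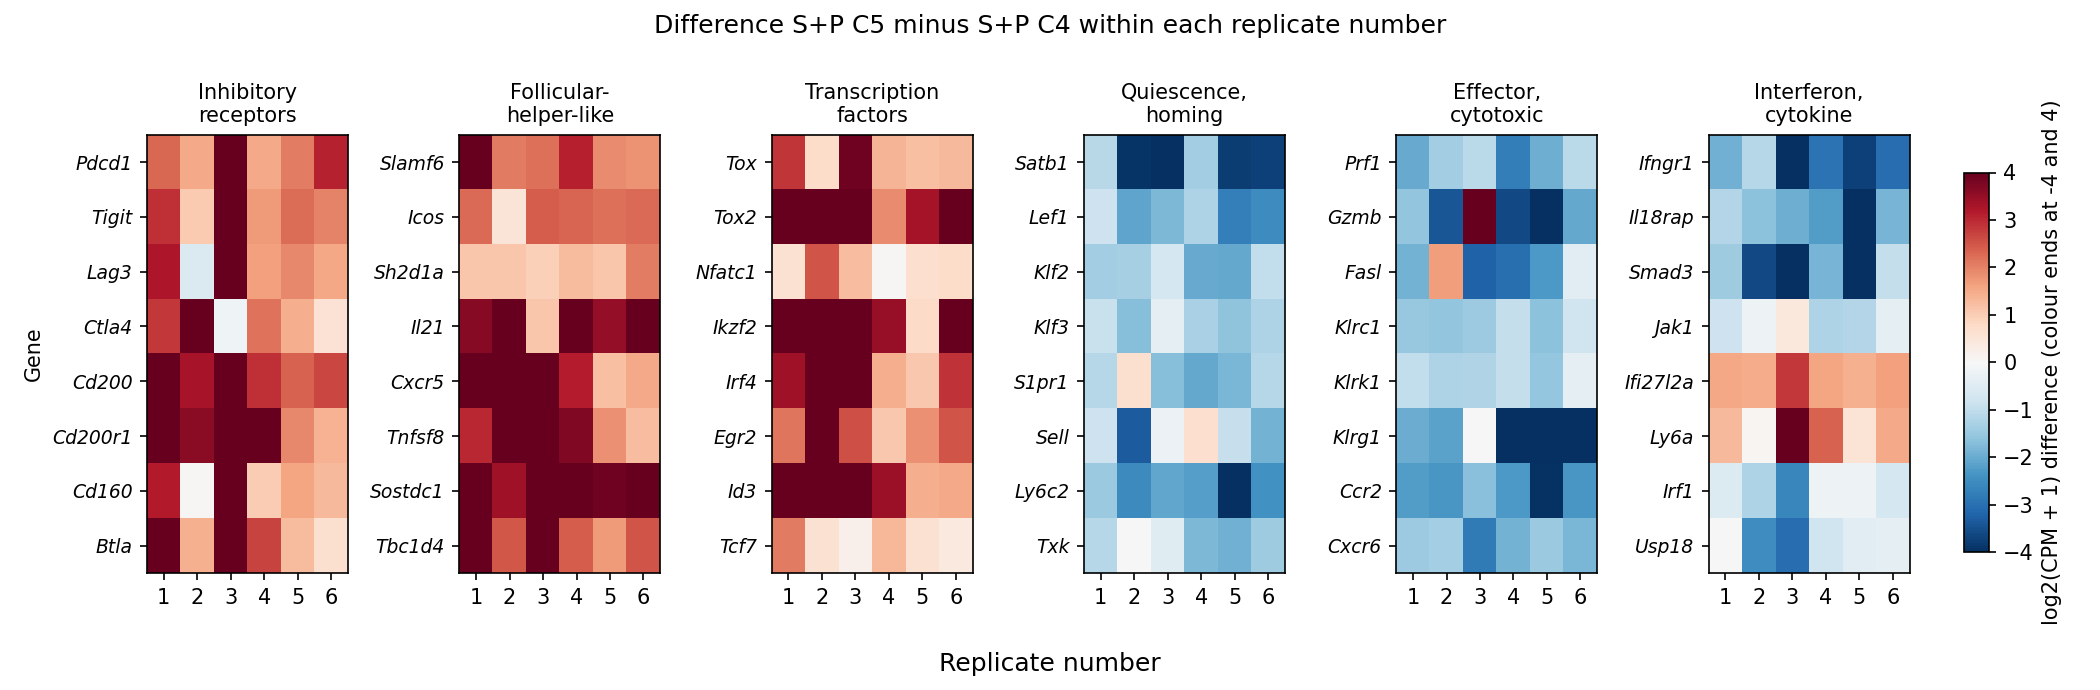
Difference of S+P C5 minus S+P C4 on the log2(CPM + 1) scale (red higher, blue lower, colours end at -4 and 4) within each replicate number for 48 genes in 6 groups, 8 genes each. The 8 follicular-helper-like genes shown were picked with their values in view and are red in all 6 columns. Of the 18 genes of that list, 9 were higher in 6 of 6 pairs. *Satb1*, *Lef1*, *Klf2* and *Ly6c2* are blue in all 6 columns, and *Gzmb* in replicate 3 is red where its other 5 columns are blue.

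Effector and cytotoxic genes were another list with more members lower than higher in PD1+CD73+ cells, with 6 lower in 6 of 6 pairs and 3 higher. In the list of quiescence, memory and lymph node homing genes, 6 were lower and 2 higher in 6 of 6 pairs. Of all genes tested, 1.39% were lower and 5.62% higher in 6 of 6 pairs. 29 of 30 were tested. At an unadjusted p under 0.05, 10 were lower and 2 higher, beside 0.778% and 2.68% of all genes. With limma-voom 15 were lower and 2 higher past both thresholds, beside 1.69% and 1.5% of all genes. The median log2 fold change was -0.59 over 6 pairs and -0.93 without replicates 2 and 3, beside 0.64 and 0.10 for all genes. In the second setting 16 were lower and 4 higher at an unadjusted p under 0.05, beside 4.03% and 4.86% of all genes. There 14 were lower and 2 higher past both thresholds with limma-voom, beside 0.747% and 0.861% of all genes. *Prf1*, the perforin gene, was 90.1 to 779 CPM (median 281) in S+P C4 and 42.4 to 191 CPM (median 82.8) in S+P C5. It was lower in 6 of 6 pairs (log2 fold change -1.72 ± 0.34, adjusted p of 0.45 and 0.000423, and -1.97 ± 0.29 without replicates 2 and 3). *Gzmb*, granzyme B, was lower in 5 of 6 pairs, at 0 to 1477 CPM (median 822) and 21.8 to 495 CPM (median 60.5). The exception was replicate 3, whose S+P C4 sample had 0. *Ccr2*, a receptor for entry into inflamed tissue, was 4.40 to 412 CPM (median 177) and 0.709 to 87.4 CPM (median 25.2) (log2 fold change -2.65 ± 0.52). *Klrg1*, a marker of terminal effector cells, was 0 to 493 CPM (median 181) in S+P C4 and 0 to 123 CPM (median 11.2) in S+P C5. *Cx3cr1*, a chemokine receptor of the same cells, was 0 to 1318 CPM (median 546) and 8.87 to 337 CPM (median 79.5) and lower in 4 of 6 pairs. The chemokine gene *Ccl5* was 2731 to 21467 CPM (median 14258) in S+P C4 and 1049 to 7426 CPM (median 2927) in S+P C5. For *Ccl5* the log2 fold change was -1.91 ± 0.47 over 6 pairs and -2.56 ± 0.37 without replicates 2 and 3. The 2 genes that were higher were *Xcl1*, a chemokine for cross-presenting dendritic cells, and *Cxcr3*, a chemokine receptor. *Xcl1* was 0.0977 to 108 CPM (median 35.7) and 135 to 777 CPM (median 385), and *Cxcr3* was 74.9 to 570.2 CPM (median 182) and 211 to 693 CPM (median 519). The cytokine genes *Ifng* and *Tnf* were higher in 6 of 6 pairs but not past a threshold (limma-voom adjusted p of 0.238 and 0.208).

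Of the cytokine receptor and signalling genes all 31 were tested, with 1 higher (*Stat4*) and 4 lower at an unadjusted p under 0.05, beside 2.68% and 0.778% of all genes. With limma-voom 6 were lower past both thresholds (*Il12rb2*, *Il18r1*, *Il18rap*, *Ifngr1*, *Smad3* and *Jak1*), beside 1.69% of all genes. With replicates 2 and 3 left out there were 4 higher and 7 lower at an unadjusted p under 0.05, beside 4.86% and 4.03% of all genes. There 3 were lower past both thresholds with limma-voom, beside 0.747% of all genes. Their median was -0.15 on the log2 scale over 6 pairs and -0.28 without replicates 2 and 3, beside 0.64 and 0.10 for all genes. *Smad3*, which carries TGF-beta signals, was 34.6 to 156 CPM (median 74.7) in S+P C4 and 0.902 to 29.6 CPM (median 12.4) in S+P C5, without overlap (adjusted p of 0.999 with edgeR and 0.0579 with limma-voom). *Jak1*, a kinase of many cytokine receptors, had a log2 fold change of -0.57 ± 0.23 over 6 pairs and -0.90 ± 0.18 without replicates 2 and 3. *Ifngr2*, the signalling chain of the interferon-gamma receptor, had means of 5.16 ± 11.1 and 4.02 ± 6.48 CPM (SD, n = 6), and the interferon-alpha receptor genes *Ifnar1* and *Ifnar2* differed by -0.40 ± 0.46 and 0.28 ± 1.28 on the log2 scale. Among 26 interferon-stimulated genes, 25 were tested. *Ifi27l2a* was the single one with an unadjusted p under 0.05 over 6 pairs, beside 3.46% of all genes. Without replicates 2 and 3, 26 were tested and 5 were higher and 2 lower at that p, beside 4.86% and 4.03% of all genes. There 1 was higher past both thresholds with limma-voom, beside 0.861% of all genes. The interferon-stimulated list had a median of 0.92 on the log2 scale over 6 pairs and 0.52 without replicates 2 and 3, beside 0.64 and 0.10 for all genes. *Ly6a* (Sca-1) was the other gene past both thresholds as higher with limma-voom over 6 pairs, at 0.293 to 358 CPM (median 151) in S+P C4 and 77.8 to 484 CPM (median 372) in S+P C5. *Irf7* was the single one as lower, where 1.5% of all genes were higher and 1.69% lower. *Isg15*, *Ifit1* and *Ifit3*, which react to type I interferon, had log2 fold changes of -0.15 ± 1.52, 0.12 ± 1.33 and 0.84 ± 1.35.

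Genes of AP-1 and signal feedback, of the cell cycle and of glycolysis were counted in the same way. Of 24 AP-1 and feedback genes 22 were tested. At an unadjusted p under 0.05, 2 were higher (*Rgs1* and *Spry1*) and 1 lower (*Junb*), beside 2.68% and 0.778% of all genes. With limma-voom 1 was higher (*Rgs16*) and 2 were lower (*Dusp5* and *Rgs2*) past both thresholds, beside 1.5% and 1.69% of all genes. *Spry1*, near 0 in most S+P C4 samples, can pass the filter on low counts through S+P C5 alone. With replicates 2 and 3 left out there were 3 higher and 5 lower at an unadjusted p under 0.05, beside 4.86% and 4.03% of all genes. There 1 was higher and 2 were lower past both thresholds with limma-voom, beside 0.861% and 0.747% of all genes. These 22 genes had a median log2 fold change of 0.08 over 6 pairs and -0.10 without replicates 2 and 3, beside 0.64 and 0.10 for all genes. *Rgs1*, which dampens chemokine receptor signals, was 104 to 908 CPM (median 568) in S+P C4 and 252 to 1345 CPM (median 901) in S+P C5 (log2 fold change 0.77 ± 0.19). Of 32 cell cycle genes 31 were tested and 2 were higher at an unadjusted p under 0.05, *Rrm2*, a subunit of ribonucleotide reductase, and *Mki67*, beside 2.68% of all genes. With limma-voom 3 were higher past both thresholds, *Rrm2*, *Mki67* and *Top2a*, beside 1.5% of all genes. Without replicates 2 and 3, all 32 were tested and 6 were higher at an unadjusted p under 0.05, beside 4.86% of all genes. There 1 was higher past both thresholds with limma-voom, beside 0.861% of all genes. *Rrm2* was 0.586 to 19.1 CPM (median 4.88) and 20.4 to 68.8 CPM (median 40.5), without overlap. *Mki67*, the proliferation marker Ki-67, was 0.0506 to 69.2 CPM (median 27.3) and 45.8 to 152 CPM (median 126), higher in 6 of 6 pairs with a limma-voom adjusted p of 0.0715. The median log2 fold change of the list was 0.91 over 6 pairs and 0.72 without replicates 2 and 3, beside 0.64 and 0.10 for all genes, and *Plk1*, *Cdc20* and *Aurka* had negative log2 fold changes over 6 pairs. No gene of glycolysis and glucose uptake had an unadjusted p under 0.05 over 6 pairs (15 of 16 tested). Without replicates 2 and 3 there were 2 higher and 1 lower (16 tested), beside 4.86% and 4.03% of all genes. *Slc2a3*, a glucose transporter, was the single one past both thresholds with limma-voom, lower at 8.34 to 28.3 CPM (median 19.6) in S+P C5 and 0 to 124 CPM (median 79.3) in S+P C4. Of 91 ribosomal protein genes 84 were tested, and 2 were higher at an unadjusted p under 0.05 (1 without replicates 2 and 3). The shares of all genes were 2.68% and 4.86%, so the list was not above them. None was past both thresholds with limma-voom. The 37 mitochondrially encoded genes had a median of -0.50 over 6 pairs and 0.15 without replicates 2 and 3.

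The cells carried the RNA of CD8+ T cells. All 16 genes of T cell identity were tested, and *Cd8a* had means of 966 ± 330.2 and 1124 ± 269 CPM (SD, n = 6) in the PD1- and PD1+CD73+ samples. The levels of the list summed to 11684 to 20065 CPM and 14601 to 20731 CPM. *Trbc2* and *Trbc1*, the constant genes of the T cell receptor beta chain, were higher in 5 of 6 pairs (0.47 ± 0.13 and 1.06 ± 0.30 on the log2 scale). *Cd4* and *Foxp3* were at or near 0, at most 3.64 and 1.33 CPM in any sample. Their list, 6 markers of CD4+ and regulatory T cells, had 4 genes tested. *Ikzf2* and *Cd40lg*, described above, were higher at an unadjusted edgeR p under 0.05, and *Il2ra* and *Zbtb7b* had negative log2 fold changes. With limma-voom 0 were past both thresholds. The PD1- samples held at most 53.6 CPM of the list (median 19.0), the PD1+CD73+ samples between 37.3 and 130 CPM (median 99.4). Markers of other cells were low but not at 0 as lists. Of 16 B cell genes 11 were above 3 counts in at least 1 library, *Ms4a1* and *Fcmr* were at 0 in all 12 samples, and the summed list was 71.2 to 750 CPM in S+P C4 and 386 to 744 CPM in S+P C5, with *Ighm* and *Igkc* at the top. *Cd22*, an inhibitory lectin known from B cells, was 0 to 60.5 CPM (median 7.66) in S+P C4 and 70.7 to 209 CPM (median 163) in S+P C5, without overlap. Myeloid and dendritic cell genes summed to 102 to 220.5 CPM in S+P C4 and 145 to 246 CPM in S+P C5, with *S100a9* and *Siglech* at 0 (14 of 16 above that floor). *Cd68* was the member with groups that did not overlap, at 0 to 21.0 CPM (median 12.9) and 27.0 to 77.2 CPM (median 54.3). NK cell genes (7 of 9 above that floor, *Klra4* and *Fcgr3* at 0) summed to 3.61 to 665 CPM in S+P C4 and 139.7 to 287 CPM in S+P C5, with *Klre1* at up to 446 CPM in S+P C4. Erythroid and platelet genes summed to 0.0506 to 459.7 CPM in S+P C4, with the highest value in replicate 3, and 3.66 to 63.1 CPM in S+P C5 (10 of 11 above that floor, *Ppbp* at 0). Genes of gamma-delta and innate-like T cells (7 of 10 above that floor, *Il17a* at 0) summed to 0.293 to 1336 CPM in S+P C4 and 84.6 to 379.5 CPM in S+P C5, and the highest sum, that of S+P C4 replicate 2, was almost all *Trgc2*. The part of these RNAs in the results above was not tested.

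The difference between the same 2 gates was set beside that of mice without a graft, where no sample is shared. The study describes N+P C1 as naive-like and S+P C4 as sensitized-like, so the PD1- reference differs between the arms. Means in N+P C1 and S+P C4 were 27.5 and 887 CPM for *Klrc1*, 430 and 12651 CPM for *Ccl5*, and 789 and 307 CPM for *Tcf7*. Whether a difference between arms lies in the PD1+CD73+ cells or in the reference cannot be told apart. N+P C5 minus N+P C1 was compared with S+P C5 minus S+P C4 for 16180 genes. With edgeR 0 were past both thresholds (0%), with 267 at an unadjusted p under 0.05 (1.65%) and 174 called by DESeq2. *Icos* differed by 2.05 ± 0.32 (SE) in sensitized mice and 1.91 ± 0.44 in mice without a graft. *Tox* differed by 1.88 ± 0.43 (SE) in sensitized mice and 1.73 ± 0.59 in mice without a graft. *Tigit* differed by 2.602 ± 0.82 (SE) in sensitized mice and 2.88 ± 1.10 in mice without a graft. For *Icos* the difference between the 2 arms was 0.13 ± 0.53 (SE) on the log2 scale, and for *Pdcd1* it was -0.96 ± 1.57 (SE).

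The genes with the smallest p for the difference between arms were *Klrc1*, *Capg* and *Osbpl3* in the negative and *Gm16150*, *Rwdd3* and *Lratd2* in the positive direction. *Klrc1* differed by -1.31 ± 0.24 (SE) in sensitized mice and 1.42 ± 0.35 in mice without a graft. In mice without a graft its levels were 7.89 to 56.5 CPM in N+P C1 and 22.3 to 236 CPM in N+P C5. The difference between arms was -2.73 ± 0.43 (SE) (edgeR adjusted p of 0.742, and 0.162 without S+P replicates 2 and 3). *Capg*, an actin-capping protein of effector cells, was 6.92 to 24.8 CPM in N+P C1 and 78.9 to 339 CPM in N+P C5. It differed by -0.56 ± 0.42 (SE) in sensitized mice and 3.41 ± 0.64 in mice without a graft (edgeR adjusted p of 1.00, and 0.107 without S+P replicates 2 and 3). *Osbpl3*, a lipid transfer protein, differed by -1.28 ± 0.50 (SE) in sensitized mice and 3.08 ± 0.78 in mice without a graft (edgeR adjusted p of 1.00, and 0.125 without those replicates). The 3 genes of the positive direction had group means of at most 21.9 CPM in these 4 groups. Among effector genes of the first comparison, *Klrk1* differed by -1.03 ± 0.31 (SE) in sensitized mice and 1.20 ± 0.48 in mice without a graft. *Ccl5* differed by -1.89 ± 0.44 (SE) in sensitized mice and 0.62 ± 0.57 in mice without a graft, and *Il18rap* by -2.15 ± 0.44 (SE) in sensitized mice and 0.65 ± 0.60 in mice without a graft. Their adjusted p-values were all 1.00, so none of these differences passed. *Tcf7* differed by 0.87 ± 0.24 (SE) in sensitized mice and -0.36 ± 0.33 in mice without a graft, with an unadjusted edgeR p of 0.0116 for the difference.

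**Figure D5:**
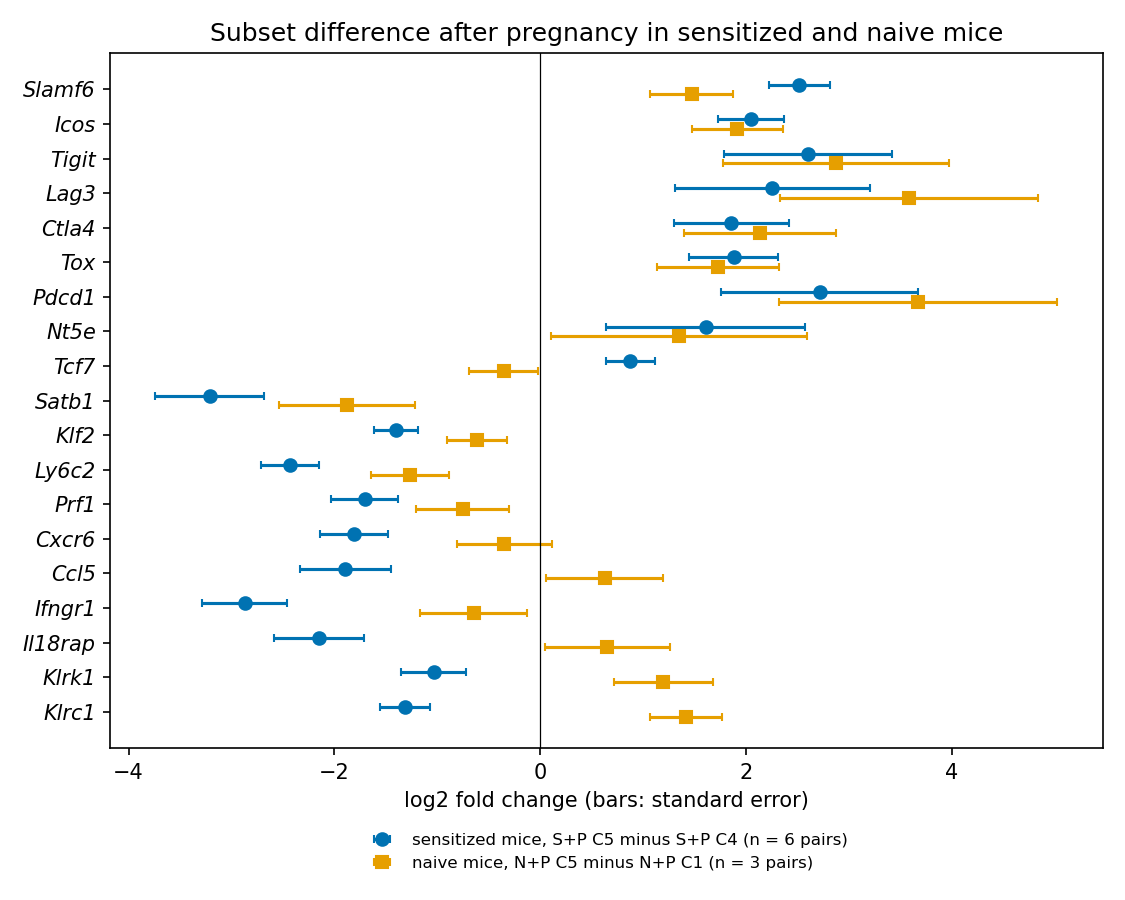
Log2 fold change (horizontal axis, bars are SE) of the PD1+CD73+ subset over the PD1- subset for 19 genes in sensitized mice (blue circles, n = 6 pairs) and in mice without a graft (orange squares, n = 3 pairs). *Tcf7*, *Ccl5*, *Il18rap*, *Klrk1* and *Klrc1* lie on opposite sides of 0 in the 2 arms and the other 14 on the same side, and no difference between arms was past the thresholds.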

How the data were processed

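RNA-Seq was done with SmartSeq2 on 200 sorted live TFGS per sample, without molecular identifiers. The authors trimmed reads with Cutadapt 3.4, aligned them to GRCm39 with STAR 2.6.1b, dropped reads without a unique position and counted reads per gene with featureCounts 2.0.1. The deposited values are these raw counts, with no normalization. The annotation release and strand option of the counting are not given in the sources used here, and 54749 of the 55359 genes were placed with GENCODE M39. Amplified reads are not independent molecules, so floors (3 counts) cover counting error only.

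Technical libraries were summed per replicate. The averaged S+P C7 sample entered the fit of all 7 groups and was left out of that of all 3 S+P subsets. The test was edgeR 4.0.16 (TMM, a robust quasi-likelihood fit of genes kept by filterByExpr at its minimum count of 10, replicate number as a block, two-sided, Benjamini-Hochberg adjustment over all genes tested), with the thresholds of the study's methods: a log2 fold change beyond 0.9 in either direction at an adjusted p under 0.1. Alternatives used limma 3.58.1 (voom with quality weights), DESeq2 1.42.0, RLE or library size, other filters and thresholds, no block, other samples in the fit, the identical library kept, and each replicate left out in turn. limma-voom and DESeq2 without replicates 2 and 3 were chosen after seeing the data. The pipeline was tested on simulated data, where DESeq2 alone called many unchanged genes. With 6 pairs and 200 changed genes, edgeR called 28 of these and limma-voom 32, against 153 and 148 with 4 pairs. The simulated counts held no mouse effect and no loss of detected genes in replicates 2 and 3. How the tools handle these was therefore not tested. R 4.3.3, Python 3.11.15, numpy 2.4.6, pandas 2.3.3 and matplotlib 3.10.9 were used.

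Same-numbered samples of both subsets were taken to come from 1 mouse, from the replicate numbers in the labels, which do not name the animal. The deviations of same-numbered samples from their group means correlated at a mean r of 0.128 over 11822 genes, against -0.0142 for other numbers, and 4 of 6 pairs were over 0.1. Nothing else in the labels says how replicates were kept apart, and the experiment each sample came from is not given in them, so experiment could not be entered as a batch.

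The members and gene lists were chosen with earlier results of these data known. Genes were named by a rule: the 10 genes per direction of smallest p that had the same sign in at least 5 of 6 pairs, up to 4 members of each list with the smallest p, the genes of the gate, and 3 genes in each direction for the difference between arms. Other list members were picked with their values in view. No sequence is shown, and some gene results are not reported here.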

Additional observations from a re-analysis of the deposited data

Results flagged for a closer look

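In 32 groups of 6 values, the library measures of each subset (total count, detected genes, and shares of mitochondrial, rRNA and protein-coding counts) and the paired differences of the leading and gate genes were screened for a single value far from the others, and 9 were found (Dixon's test at 95%, which chance passes in about 1 group in 20). Mitochondrially encoded genes took 24.3% of the counts of S+P C4 replicate 3. The other 8 are differences of S+P C5 minus S+P C4 on the log2(CPM + 1) scale. For *Pdcd1* replicate 3 differed by 6.96, where the others lay between 1.51 and 3.07. Replicate 3 also stood apart for *Ifi27l2a* (2.82, others 1.42 to 1.64), for *Homez* (0.38, others 2.99 to 4.44) and for *Cxcr6* (-2.83, others -1.90 to -1.35). Replicate 2 had the smallest *Icos* difference (0.51, others 2.19 to 2.41). Replicate 6 had the largest difference for *Sh2d1a* (2.05, others 0.94 to 1.26) and the smallest for *Cpq* (2.03, others 4.50 to 5.60). For *Il18rap* replicate 5 had the largest (-4.37, others -2.25 to -1.18). All 8 kept the sign of the other 5 pairs. Except for *Pdcd1*, these genes were named by a rule that asked for the same sign in at least 5 of 6 pairs.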

How the results depend on the processing

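The count of genes past both thresholds was 0 with the replicate block. It was 2 with no replicate block, 6 with all 7 groups in 1 fit without the block, 1 with all 3 S+P subsets and the block, 2 without replicates 2 and 3, 3 with RLE, 1 with library size, 3 without a filter, 3 with a mean of at least 10 CPM, 1 with the identical library kept, and 0 to 2 when each replicate was left out. limma-voom called 377 (211 without replicates 2 and 3), DESeq2 840 (1511 without them) and DESeq2 on separate libraries 437. On simulated counts with no change DESeq2 also called many genes and edgeR and limma-voom none, so the DESeq2 counts are not read as differences. Those simulated counts held no loss of detected genes, so the limma-voom counts were not tested in that respect. For the difference between arms DESeq2 called 174 and the edgeR alternatives 0. The gate differences lost their p under 0.05 in smaller designs: without replicates 2 and 3, *Pdcd1* was 2.24 and *Nt5e* 0.60, with each replicate left out they were 2.09 to 3.18 and 0.98 to 1.84 (exact p = 0.0625, the smallest 5 pairs allow), and *Nt5e* without the pairing was 1.57 (exact p = 0.169). Of 1650 values for 88 named genes, 1485 kept direction and side of the thresholds, 135 kept direction and passed them, and 30 changed sign. These were *Ighm* (-0.21 without replicates 2 and 3, -0.41 with no block and without S+P C4 replicates 2 and 3, -0.16 with DESeq2 on separate libraries, -0.56 with limma-voom, -0.11 without replicate 2) and *Trgc2* (-1.34 with no block, -1.37 with all 7 groups, -0.050 with limma-voom, -0.17 without replicate 3). *Hba-a1* went to -2.18, -2.20, -0.23, -0.21, -2.09, -0.84, -0.0236 and -0.0202 in 8 settings, and to -0.89, -0.75 and -0.16 without replicates 2, 4 and 6. With each replicate left out the ranges were -0.11 to 0.94 (*Ighm*), -0.17 to 1.16 (*Trgc2*), -0.89 to 0.92 (*Hba-a1*) and -2.55 to 0.017 (*Klrb1c*, above 0 without replicate 5). With no block and without S+P C4 replicates 2 and 3, *Hbb-bs* was 0.55, *Alas2* -0.065, *Rpl38* 0.35, *mt-Nd2* 0.22, *mt-Nd6* 0.18, *mt-Nd4* 0.38 and *mt-Rnr2* 0.28, and without replicates 2 and 3 of both subsets *mt-Nd4* was 0.017 and *mt-Rnr2* 0.10. The cause was not tested. Samples with 7436 and 8002 detected genes limit what low genes can show.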
